A study of Mus musculus with 4 samples.

Results

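The primary granule genes described here are Mpo, Elane, Prtn3, Ctsg, Ms4a3 and Nkg7. They were found by the gene name that the raw array files give to each probe: 6 of 22562 named genes, read by 8 of 55681 probes. Mpo and Nkg7 have 2 probes each and the other members have 1. Expression was measured in LSK (Lin-Sca-1+c-Kit+) cells, the part of the bone marrow in which blood stem cells and multipotent progenitors lie. The cells were sorted from lethally irradiated mice that had been given E14.5 fetal liver cells; the background strain was C57B6. The WT group received wild type cells and was sampled 16 weeks later. The TET2KD group received cells in which TET2, the dioxygenase that acts on methylated cytosines in DNA, was knocked down, and was sampled at 10 weeks. The JAK2V617F group received cells carrying as a transgene the activating kinase mutation of myeloproliferative neoplasms, and was sampled at 16 weeks. The double mutant group received cells with both alterations and was sampled at 13 weeks. Each group comprised 5 mice and 1 array. Whether the cells of the mice were pooled, how TET2 was knocked down and which promoter drives the transgene are not given in the sources used here. Only JAK2V617F and WT share a time, so genotype and weeks after transplantation cannot be told apart in the other comparisons.

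Primary (azurophilic) granules are filled early in granulopoiesis, at the promyelocyte stage, and their genes are already transcribed in granulocyte-monocyte progenitors. Mpo encodes myeloperoxidase, the heme enzyme that makes hypochlorous acid. Elane, Prtn3 and Ctsg encode neutrophil elastase, proteinase 3 and cathepsin G, serine proteases that are stored in active form after cathepsin C has trimmed them. Ms4a3 encodes a membrane protein of the same progenitors and is not itself granule cargo. Nkg7 encodes a membrane protein of cytotoxic granules, known best from natural killer and cytotoxic T cells, and is also expressed by myeloid progenitors. The transcription factors C/EBPα, C/EBPε, PU.1, RUNX1 and MYB are known to act on promoters of this group.

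The values of each gene rest on short stretches of its transcript, and the sequences of 4 probes are shown to make that visible. The first Mpo probe matches chr11:87615121-87615180 (mm9, plus strand) and the second lies 2719 bases further along, at chr11:87617840-87617899. The Prtn3 probe has 60 bases but covers 817 bases of genome, chr10:79343869-79344685 (plus strand), so it crosses at least 1 intron. The Elane probe, at chr10:79350902-79350961 (plus strand), lies 6217 bases from it on the same strand. The second Mpo probe and the Elane probe hold AATAAA, the letters of the usual polyadenylation signal, set in capitals; 30 bases of each are shown.
Mpo probe 1: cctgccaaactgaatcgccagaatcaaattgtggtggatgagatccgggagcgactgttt
Mpo probe 2, bases 31 to 60: tatttgtacctgaggttcacactAATAAAa
Elane probe, bases 26 to 55: ccattttactacAATAAAagcagcctttgt
Prtn3 probe: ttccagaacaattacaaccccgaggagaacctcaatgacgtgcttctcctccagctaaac
The Ctsg probe lies at chr14:56718795-56718854 and the Ms4a3 probe at chr19:11704055-11704114, both on the minus strand. The Nkg7 probes lie 382 bases apart on the plus strand, at chr7:50693148-50693207 and chr7:50693530-50693589. Exon and UTR annotation of mm9 was not used here.

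Since Mpo, Prtn3 and Ctsg follow 1 order over the arrays, the 250 bases before the members' transcription starts were compared (RefSeq, GRCm38.p6, found for all 6). Capitals mark AGGAAG on either strand, the core of the site of the factor PU.1. The windows are chr11:87793534-87793783 for Mpo, chr10:79886062-79886311 for Elane and chr10:79879417-79879666 for Prtn3, on the plus strand, and chr14:56102575-56102824 for Ctsg, on the minus strand.
Mpo promoter: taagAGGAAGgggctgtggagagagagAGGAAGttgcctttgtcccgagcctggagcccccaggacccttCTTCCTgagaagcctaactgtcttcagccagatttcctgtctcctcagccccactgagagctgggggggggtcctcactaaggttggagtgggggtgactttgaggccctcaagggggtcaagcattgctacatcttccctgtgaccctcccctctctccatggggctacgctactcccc
Elane promoter: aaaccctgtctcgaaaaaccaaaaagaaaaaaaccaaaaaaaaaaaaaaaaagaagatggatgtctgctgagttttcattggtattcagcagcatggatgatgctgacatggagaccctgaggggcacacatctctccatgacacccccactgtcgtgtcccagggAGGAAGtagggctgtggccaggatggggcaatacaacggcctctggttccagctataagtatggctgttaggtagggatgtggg
Prtn3 promoter: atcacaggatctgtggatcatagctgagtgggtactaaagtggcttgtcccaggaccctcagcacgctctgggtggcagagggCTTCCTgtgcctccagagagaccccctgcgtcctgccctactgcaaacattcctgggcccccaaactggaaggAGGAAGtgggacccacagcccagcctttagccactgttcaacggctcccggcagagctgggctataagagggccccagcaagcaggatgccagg
Ctsg promoter: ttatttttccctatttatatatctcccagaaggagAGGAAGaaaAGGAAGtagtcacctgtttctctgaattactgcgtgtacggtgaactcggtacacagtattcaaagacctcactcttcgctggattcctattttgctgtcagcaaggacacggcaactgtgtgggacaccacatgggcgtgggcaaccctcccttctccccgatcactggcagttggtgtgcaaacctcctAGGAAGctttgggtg
The longer form GAGGAAGT stood in the Mpo, Elane and Prtn3 windows, 3 of 6 members, and in 2.44% of 32851 promoters of the same length. It began 224, 85 and 95 bases before the start, on the gene's own strand each time. Ctsg, which follows the order over the arrays, lacked it, and Elane, which does not, held it. GAGGAA, which the longer form contains, was also found in Ctsg and in 23.3% of all promoters. AGGAAG, chosen after the sequences had been seen and also contained in GAGGAAGT, stood in all 6 member windows, with 1 match each in Ms4a3 and Nkg7, and in 29.5% of all promoters. The C/EBP palindrome TTGCGCAA was in 0 of the 6 and 0.164% of promoters, and its looser form TTNNGNAA in Ms4a3 and 36.8%. The MYB letters AACTG stood in 4 members and 39.1% of promoters, and AACNG, which contains them, in 5 and 74.2%. TGTGGT, the RUNX letters, was found in Ctsg and Nkg7 and in 14.0% of promoters; the looser TGNGGT stood in the same pair and in 40.1%. Every motif was searched on both strands, and a match describes letters, not binding.

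The arrays were alike in depth: 49.4% to 54.7% of spots were well above background, the 75th percentile of the intensity ran from 120 (TET2KD) to 144 (double mutant), and no spot was saturated. Of the 3 Tet2 probes, the 2 that were well above background on every array read 27.3% and 56.3% of WT in TET2KD and 60.3% and 61.6% in the double mutant, and the remaining probe was well above background in the double mutant alone. JAK2V617F read 73.1% and 105% of WT on the same 2 Tet2 probes. The remaining Tet2 probe, not well above background in WT, read 200%, 81.6% and 380% of WT in TET2KD, JAK2V617F and the double mutant. The Jak2 probe read 95.8% to 110% of WT and may or may not read the transgene. Kit and Ly6a, which encode the c-Kit and Sca-1 of the gate, were well above background on all 4 arrays. Each group being a single array, there is no replicate and no test, and higher and lower describe these arrays. The only error measured is that of repeated spots within an array, with an SD of 0.151 to 0.159 on the log2 scale. It sets a limit of 0.43 to 0.44 log2 between 2 arrays, which would hold 95% of differences made by spots alone, and leaves out animals, sorting and amplification.

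All 8 probes were well above background on all 4 arrays, so no member is described by a bound. Myeloperoxidase was lowest in WT and highest in the double mutant on both probes. The first Mpo probe had an intensity of 1149 (WT), 3019 (TET2KD), 5136 (JAK2V617F) and 6229 (double mutant). The second read 3067, 4107, 8638 and 11318 in the same order. After each array was scaled to its 75th percentile, the first probe was 2.80-fold, 4.38-fold and 4.82-fold higher than in WT in TET2KD, JAK2V617F and the double mutant. The second was 1.43-fold, 2.76-fold and 3.28-fold higher. The arrays stood in the same order on both, while the size of the TET2KD difference depended on the probe.

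Among the serine proteases, Ctsg had the widest span of the 6 members. Its intensity was 784 (WT), 2704 (TET2KD), 7847 (JAK2V617F) and 10679 (double mutant). The scaled signal was 3.67-fold, 9.80-fold and 12.1-fold higher than in WT. Prtn3 followed the same order, with intensities of 276 (WT), 648 (TET2KD), 1639 (JAK2V617F) and 1826 (double mutant). It was 2.51-fold higher than in WT in TET2KD and 5.82-fold and 5.89-fold higher in the arrays with JAK2V617F. For Mpo, Prtn3 and Ctsg, each step from WT to TET2KD and from TET2KD to JAK2V617F was larger than the limit of spot error, and the step from JAK2V617F to the double mutant was not.

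Elane departed from that order although its gene is the nearest of the members to Prtn3. It read 207 (WT), 1215 (TET2KD), 1013 (JAK2V617F) and 1324 (double mutant). After scaling, TET2KD was the highest array, 6.27-fold above WT, followed by the double mutant at 5.70-fold and JAK2V617F at 4.80-fold. The 3 mutant arrays stood apart from WT by more than spot error, and neighbouring mutant arrays differed by 0.25 and 0.14 log2, inside it.

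Ms4a3 was higher on both arrays with the JAK2V617F transgene than on both without it. Its intensity was 867 (WT), 625 (TET2KD), 2484 (JAK2V617F) and 2321 (double mutant). The scaled signal of TET2KD was 0.769 times that of WT, a difference of -0.38 log2 that spot error covers. JAK2V617F was 2.81-fold and the double mutant 2.38-fold higher than WT.

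Nkg7 was lowest in TET2KD on both probes. The first probe read 466 (WT), 289 (TET2KD), 582 (JAK2V617F) and 643 (double mutant). The second read 3862, 1813, 3269 and 3777. TET2KD stood 1.51-fold and 1.998-fold below WT on the 2 probes, beyond spot error on each. The probes disagreed on the place of WT: on the first it lay below JAK2V617F by 0.29 log2, and on the second above JAK2V617F by 0.27 and above the double mutant by 0.20, all inside the limit of spot error.

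**Figure D1:**
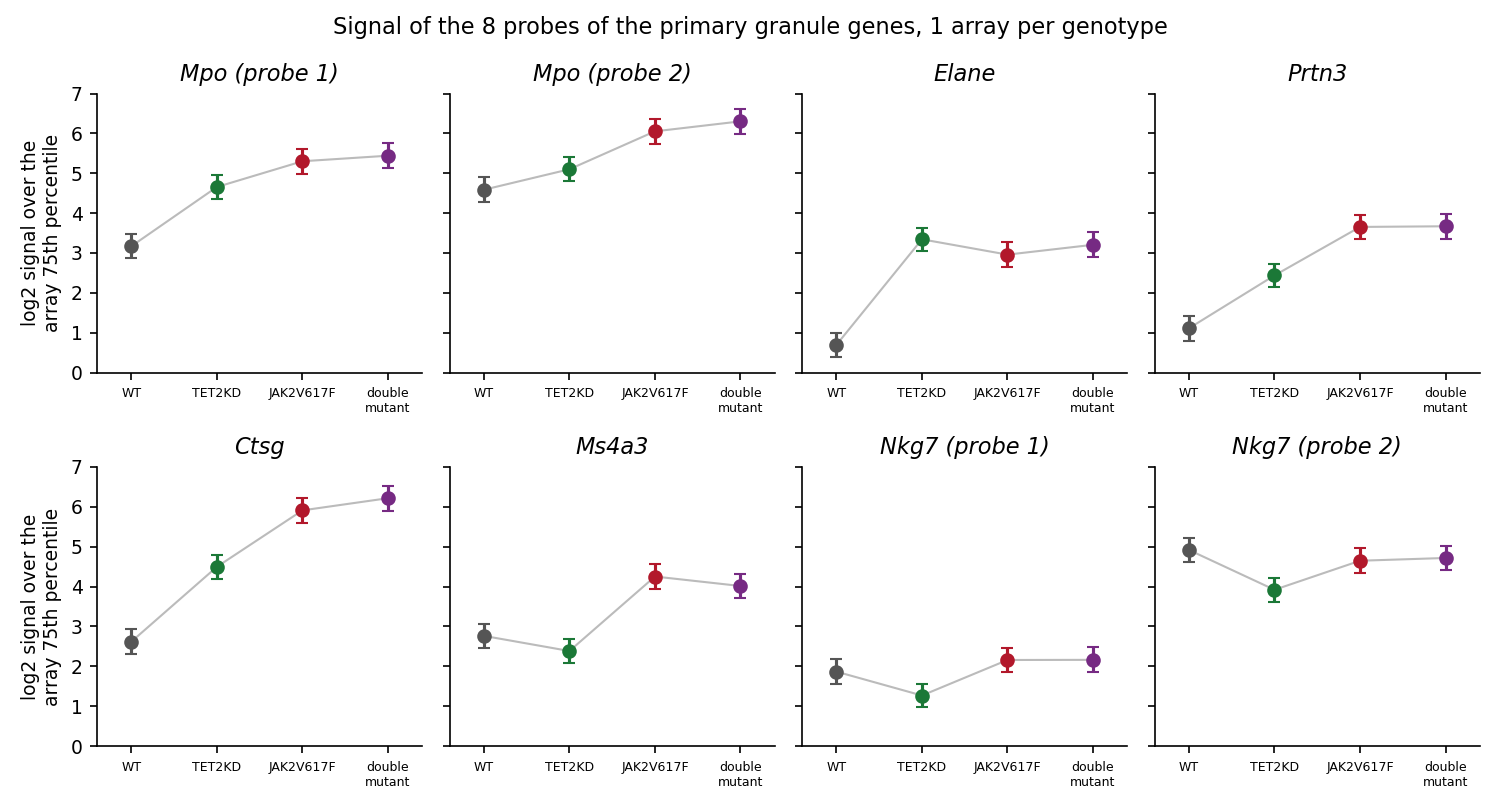
Scaled log2 signal (log2 intensity minus the array's 75th percentile) of each of the 8 probes, with 1 array per genotype along the horizontal axis. Bars are 95% ranges from the SD of repeated spots and cover spot error only; lines join arrays of 1 probe. Mpo, Prtn3 and Ctsg climb from WT to the arrays with JAK2V617F, Elane is level over the 3 mutants, and both Nkg7 probes dip in TET2KD.

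The order of the arrays was set against that of all genes. The order WT, TET2KD, JAK2V617F, double mutant from low to high was held by 3 of 6 members (Mpo, Prtn3 and Ctsg), against 4.29% of the 16085 genes measured on any array. Both arrays with JAK2V617F stood above both arrays without it for 5 members, all but Elane, against 16.2% of genes. WT was the lowest array for 4 members (Mpo, Elane, Prtn3 and Ctsg), against 22.3%, and the double mutant the highest for 4 (Mpo, Prtn3, Ctsg and Nkg7), against 21.7%. Probes of a gene were averaged for these counts, and Nkg7 counts by that mean although WT was its highest array on the second probe. With quantile, median or cyclic loess scaling, or with the brightest probe per gene, both arrays with JAK2V617F stood above both others for 4 members and not 5, and with the brightest probe the double mutant was the highest array for 3. For Mpo, Prtn3 and Ctsg the last step of the full order, from JAK2V617F to the double mutant, was inside spot error. The members were chosen with earlier results of these data known, so these counts are a description and not a test.

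TET2KD against WT sets the knock-down without the transgene, sampled at 10 weeks, against WT at 16 weeks. Genotype and time cannot be told apart in it. Elane, Ctsg and Prtn3 were at least 2-fold higher, 3 of 6 members, where 15.9% of 14314 genes compared were. None of the members was lower by that much, against 17.5% of genes. Mpo fell just short, at 0.9999 log2, and Ms4a3 and Nkg7 were on the other side of WT, at -0.38 and -0.80 log2. The median of the members was 1.16 log2, beside -0.05 over all genes. Elane had the largest difference of the 6, and 323 genes differed upward by more; for Ctsg the number was 801 and for Prtn3 1576.

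With JAK2V617F alone, 5 of 6 members were at least 2-fold higher than in WT: Ctsg (3.29 log2), Prtn3 (2.54), Elane (2.26), Mpo (1.80) and Ms4a3 (1.49). The background was 15.5% of 14896 genes higher and 15.7% lower. Nkg7 differed by 0.01 log2, the mean of its 2 probes. The median of the members was 2.03, beside -0.01 over all genes. Only 95 genes showed a larger upward difference than Ctsg, while 1297 exceeded Ms4a3. In this comparison both arrays came from 16 weeks after transplantation.

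In the double mutant the same 5 members were at least 2-fold higher than in WT, with 3.60 log2 for Ctsg, 2.56 for Prtn3, 2.51 for Elane, 1.99 for Mpo and 1.25 for Ms4a3. Of 14817 genes, 15.3% were higher and 16.6% lower. The median of the members was 2.25, beside -0.01 over all genes, and 52 genes exceeded Ctsg. All 3 comparisons with WT share the WT array, so its error enters each of them.

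Between the double mutant and JAK2V617F the members hardly differed. The largest difference was 0.31 log2 (Ctsg, 1.24-fold higher), Ms4a3 was at -0.24, and the others lay between 0.02 and 0.25. Each probe's difference was inside spot error. None of the 6 reached 2-fold in either direction, while of 14982 genes 12.3% reached it upward and 12.7% downward. The median of the members was 0.12, beside -0.02 over all genes.

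Between the double mutant and TET2KD, Ctsg (3.30-fold), Ms4a3 (3.097-fold) and Prtn3 (2.35-fold) were higher, 3 of 6 members, against 15.8% of 14565 genes. None was at least 2-fold lower, against 15.5%. Mpo was 1.99-fold and Nkg7 1.80-fold higher, both short of the threshold. Elane was at -0.14 log2, inside spot error. The median was 1.11, beside 0.02 over all genes.

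**Figure D2:**
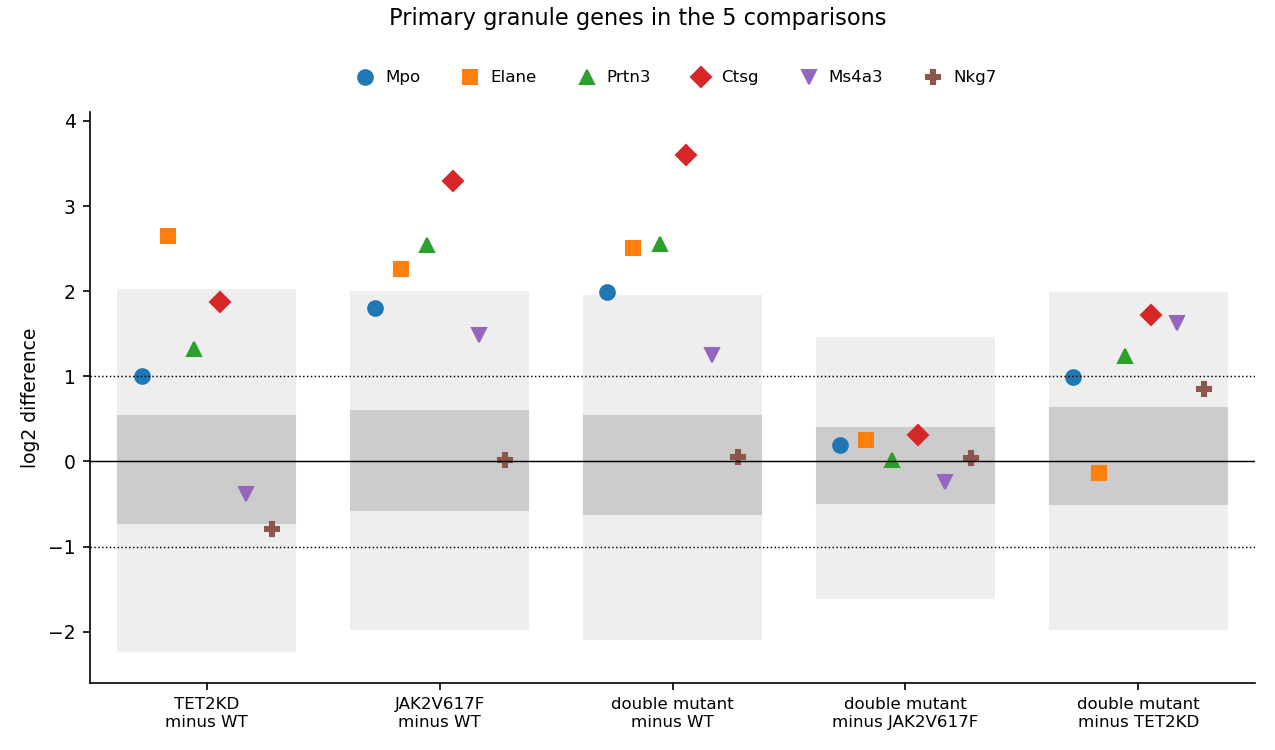
Log2 difference of each of the 6 genes (mean of its probes) in the 5 comparisons. Dark bands hold the central 50% and light bands the central 90% of genes whose brighter array is at or above its 75th percentile, and dotted lines mark 2-fold. In JAK2V617F minus WT, Elane, Prtn3 and Ctsg lie above the light band, and in double mutant minus JAK2V617F all 6 lie inside the dark band.

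The 4 groups form a 2 by 2 layout, so the double mutant can be set against the sum of the single differences from WT on the log2 scale. It fell short of that sum for the 4 members that encode granule enzymes. Elane was 5.70-fold above WT where the sum of the singles is 30.1-fold, an interaction of -2.40 log2. The interaction was -1.57 for Ctsg (12.1-fold against 36.02-fold), -1.31 for Prtn3 (5.89-fold against 14.6-fold) and -0.80 for Mpo (3.98-fold against 6.95-fold). Ms4a3 was at 0.14 (2.38-fold against 2.16-fold), inside the limit of 0.61 that spot error sets for an interaction. Nkg7 was at 0.83 (1.03-fold against 0.579-fold), with 0.60 on its first probe, just inside that limit, and 1.07 on its second. The double mutant lay at least 2-fold below the sum for Elane, Prtn3 and Ctsg, 3 of 6 members, against 20.5% of 16085 genes. The median of the members was -1.06, beside 0.01 over all genes. The 2 Mpo probes gave -1.35 and -0.26, the second inside spot error, so the size of that gene's value depends on the probe. Each interaction adds the WT value, while each single difference subtracts it. A low WT reading alone therefore raises the single differences and lowers the interaction. Mpo, Elane, Prtn3 and Ctsg were lowest in WT, and the share and median over all genes were not restricted to such genes. The shortfall can thus not be read as particular to the granule genes.

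**Figure D3:**
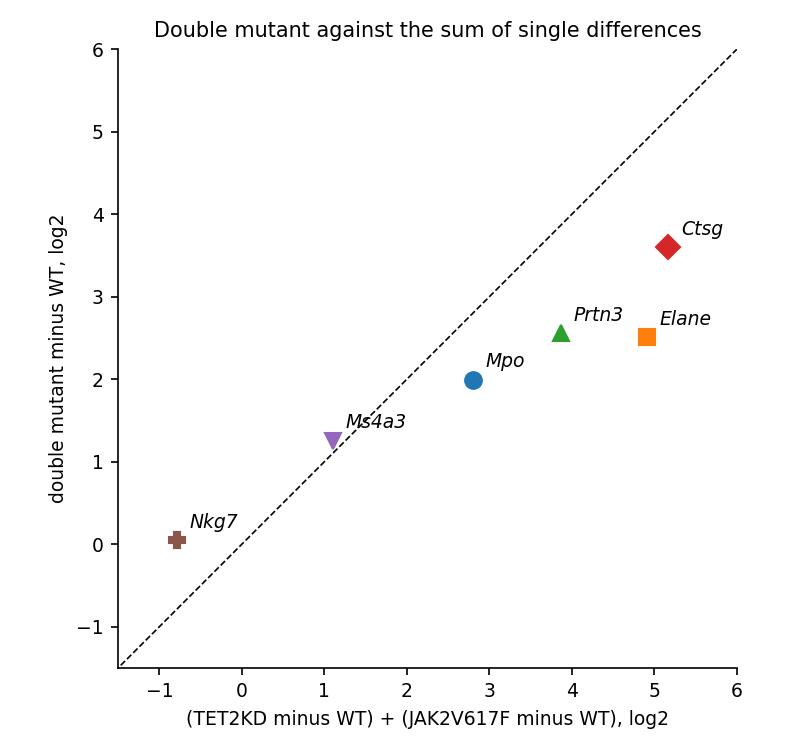
Log2 difference of the double mutant from WT against the sum of the TET2KD and JAK2V617F differences from WT, 1 point per gene, with the line of equality dashed. Mpo, Elane, Prtn3 and Ctsg lie under the line, Ms4a3 lies close to it and Nkg7 above it.

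Of the other genes of the primary granule, part were higher and part lower than in WT. Of 9 measured genes for further cargo, sorting and activation, 3 were at least 2-fold higher in TET2KD, and 2 of 8 in each array with JAK2V617F; 0, 1 and 1 were lower. Of all genes compared with WT, 15.9%, 15.5% and 15.3% were at least 2-fold higher in the same arrays. The shares lower were 17.5%, 15.7% and 16.6%. The list medians were 0.68, 0.09 and 0.20 log2. Prss57, a granule serine protease encoded 99.6 kb from the Prtn3 probe, was not well above background in WT; TET2KD exceeded it by at least 1.95-fold, JAK2V617F by 4.81-fold and the double mutant by 3.59-fold. Fcnb, which encodes ficolin B, was 6.34-fold, 2.34-fold and 1.29-fold higher, with 1 of its 2 probes bounded in the first. Lyz2, lysozyme 2, was 2.86-fold, 1.23-fold and 3.24-fold higher. Cd63, a granule membrane protein, stood 1.44-fold, 2.12-fold and 2.39-fold below WT. Ctsc, the activating protease cathepsin C and named here outside the rule for its role, stood 1.12-fold, 1.48-fold and 1.24-fold below WT.

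The inhibitors of the granule proteases showed no common direction. In TET2KD 3 of 8 measured inhibitors were at least 2-fold lower and 0 higher, in JAK2V617F 0 were lower and 1 higher, and in the double mutant 2 were lower and 0 higher. Over all genes the shares lower were 17.5%, 15.7% and 16.6%, and the shares higher 15.9%, 15.5% and 15.3%. The medians were -0.60, -0.14 and 0.20 log2. Cst7, which encodes cystatin F, stood 3.99-fold and 1.13-fold below WT in TET2KD and JAK2V617F and was 1.89-fold higher in the double mutant. On the log2 scale Serpina3g was at -2.08, -0.10 and -0.84. Serpinb6b was at -1.15, -0.33 and -1.13. Serpina1a, an α1-antitrypsin gene, was at least 1.59-fold lower in TET2KD and at least 2.12-fold lower in the double mutant, in neither of which it was well above background. Serpinb1a, the cytosolic inhibitor of elastase, proteinase 3 and cathepsin G, was the gene higher in JAK2V617F; chosen after its values were seen, it was at -0.12, 1.06 and 0.91 log2.

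Of 11 transcription factors known to act on this group, 4 were at least 2-fold higher and 1 lower in TET2KD, and 3 were higher and 0 lower in JAK2V617F and in the double mutant. Beside them, 15.9%, 15.5% and 15.3% of all genes were higher and 17.5%, 15.7% and 16.6% lower. The medians were 0.78, 0.37 and 0.85 log2. Cebpa, the factor needed to form granulocyte-monocyte progenitors, was 2.19-fold, 6.55-fold and 2.63-fold higher than in WT. Cebpd, dim in WT, was 4.80-fold, 5.48-fold and 6.27-fold higher. Irf8, which favours the monocyte fate, was 1.84-fold, 3.77-fold and 7.90-fold higher. Gfi1, a repressor needed for neutrophil differentiation, stood 4.22-fold and 1.27-fold below WT in TET2KD and JAK2V617F and was 1.06-fold higher in the double mutant. Spi1, which encodes PU.1 and is named here after its motif had been looked for, was 2.92-fold, 1.45-fold and 1.91-fold higher.

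Among 18 further genes of granulocyte-monocyte progenitors, 3 of 17 measured were at least 2-fold higher in TET2KD, 7 of 18 in JAK2V617F and 9 of 18 in the double mutant, with 2, 1 and 1 lower. All genes gave 15.9%, 15.5% and 15.3% higher and 17.5%, 15.7% and 16.6% lower, so the TET2KD count was near the share of all genes. The medians were 0.19, 0.56 and 1.04 log2, in the same order over the arrays as the medians of the members. F13a1, coagulation factor XIII A, was not well above background in WT, which the mutants exceeded by at least 13.5-fold, 23.4-fold and 31.6-fold. Igsf6 was 5.02-fold, 5.44-fold and 12.7-fold higher. Fcgr2b, an inhibitory Fc receptor, exceeded WT by at least 17.8-fold, 2.66-fold and 4.83-fold.

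The genes of later granules had their own order over the arrays. Of 14 measured genes of secondary and tertiary granules and mature neutrophils, 8 were at least 2-fold higher and 1 lower in TET2KD. In JAK2V617F 3 were higher and 5 lower, and in the double mutant 5 were higher and 1 lower. Among all genes compared, 15.9%, 15.5% and 15.3% were higher and 17.5%, 15.7% and 16.6% lower in these arrays. The medians were 1.17, -0.63 and 0.50 log2. Ltf, lactoferrin, was 8.62-fold higher in TET2KD, at least 3.18-fold lower in JAK2V617F and 4.18-fold higher in the double mutant. Chil3 was 6.37-fold higher, 1.49-fold lower and 4.07-fold higher in the same arrays. Lcn2, lipocalin 2, stood 1.71-fold, 8.98-fold and 1.28-fold below WT. Cybb, a subunit of the NADPH oxidase, exceeded WT by at least 8.30-fold, 24.8-fold and 30.2-fold. On the JAK2V617F array the median of the 6 members was 2.03 and that of the later genes negative. The list of other primary granule cargo, sorting and activation genes had a median of 0.09 there, so the 2.03 describes the members only.

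**Figure D4:**
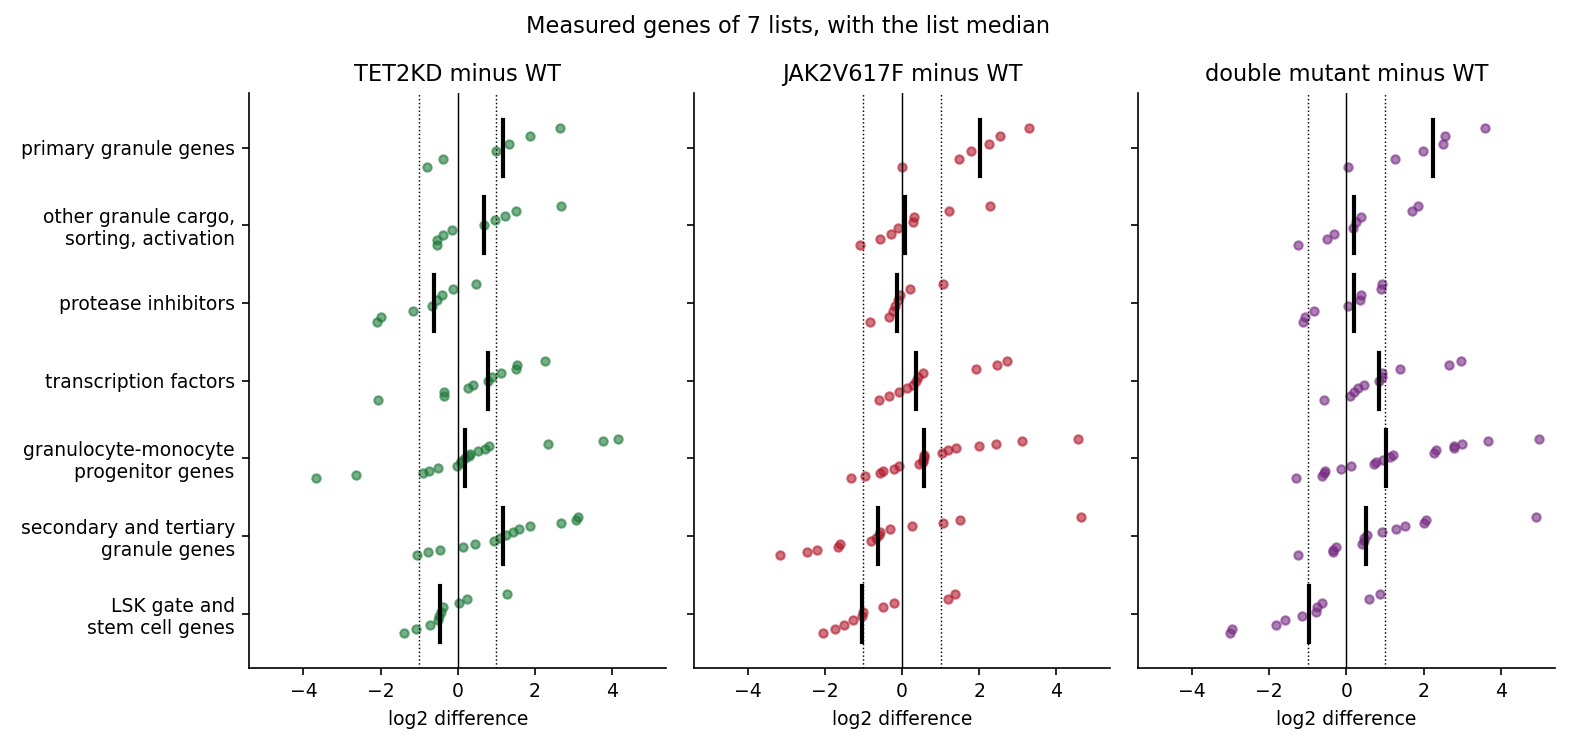
Log2 difference from WT of each measured gene (points) of the 6 primary granule genes and 6 further lists, with the list median as a vertical bar; dotted lines mark 2-fold, and genes not well above background on 1 side stand at their bound. The median of the 6 primary granule genes is 1.16, 2.03 and 2.25 in TET2KD, JAK2V617F and the double mutant. That of the other granule cargo, sorting and activation genes is 0.68, 0.09 and 0.20. For secondary and tertiary granule genes it is 1.17, -0.63 and 0.50.

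Several stem cell genes stood below WT in the arrays with JAK2V617F, while in TET2KD the share of them that did so was near that of all genes. Of the genes of the gate itself, Ly6a was 2.44-fold, 2.28-fold and 1.49-fold higher than in WT in TET2KD, JAK2V617F and the double mutant. Of 10 measured LSK and stem cell genes, 2 stood at least 2-fold below WT in TET2KD, 6 in JAK2V617F and 5 with both alterations, against 17.5%, 15.7% and 16.6% of all genes compared, and 1, 2 and 0 stood above it. Their summed scaled signal, in units of the array's 75th percentile, was 107 (WT), 82.7 (TET2KD), 70.8 (JAK2V617F) and 51.4 (double mutant). That order is the reverse of the order of Mpo, Prtn3 and Ctsg, and the summed signal of the 6 members was 50.2, 81.9, 167 and 189. Kit stood 1.29-fold, 2.39-fold and 3.52-fold below WT, the first of these inside the limit that spot error sets, and Meis1 1.64-fold, 2.03-fold and 7.86-fold. Flt3 was at 1.03-fold above WT in TET2KD and 4.16-fold and 1.72-fold below it in the others, with some of its probes bounded in JAK2V617F. In a sorted bulk sample, fewer cells of a type and less RNA per cell cannot be told apart. The part of the stem cell genes in the members' differences was not tested.

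Markers of other cells that could enter the gate moved in several directions, and their part in the members' values was not tested. Of 14 NK and cytotoxic T cell genes, 4 were detected in WT, 7 in TET2KD and 9 in each array with JAK2V617F, with a summed scaled signal of 10.6, 11.03, 11.14 and 20.7. At least 2-fold higher than in WT were 3 of 7 measured in TET2KD, 2 of 9 in JAK2V617F and 5 of 9 with both alterations, and 0 were lower. For all genes the shares were 15.9%, 15.5% and 15.3% higher and 17.5%, 15.7% and 16.6% lower. Klrk1, Cd3g and Cd8a were not well above background on any array, and Tbx21 was 2.66-fold, 1.05-fold and 15.9-fold higher than in WT. Gzmb exceeded WT by at least 5.14-fold, 10.2-fold and 2.57-fold, and Il2rb by at least 1.98-fold, 7.65-fold and 6.49-fold.

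Of 12 mast cell and basophil genes, 4 to 6 were detected per array, with sums of 9.04 to 12.3; 0 of 5, 1 of 7 and 2 of 6 measured were at least 2-fold above WT, 1, 2 and 2 were below it, and Mcpt1, Mcpt2, Mcpt4, Cma1 and Ms4a2 were not well above background on any array. Of 7 monocyte and macrophage genes, 3 were detected in WT and in TET2KD and 6 in each of the others, with sums of 22.7, 36.7, 32.2 and 40.8 from WT to the double mutant, and 2 of 4, 3 of 7 and 6 of 6 measured were at least 2-fold above WT and 0 below it. Of 6 B cell genes, 3 were detected on each array; the sum was 10.2 in WT and 1.38 to 2.31 in the mutants, where 1, 1 and 0 stood at least 2-fold above WT and 2, 1 and 2 below it, and Ms4a1 and Ebf1 were not well above background on any. Of 7 red cell genes, 3, 4, 6 and 6 were detected, with sums of 6.67, 26.8, 10.9 and 15.9, and 3 of 4, 1 of 6 and 3 of 6 measured stood at least 2-fold above WT and 0, 1 and 0 below it. Slc4a1, the anion exchanger of the red cell, was 23.6-fold higher in TET2KD and 20.1-fold in the double mutant, and stood 1.15-fold below WT in JAK2V617F. Beside the counts of these lists, 15.9%, 15.5% and 15.3% of all genes stood at least 2-fold above WT and 17.5%, 15.7% and 16.6% below it. The later granule genes above had sums of 182, 232, 132 and 175.

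The relatives of the members were mostly not detected or had differences of their own. Of the 14 granzymes and mast cell chymases, the serine proteases related to Ctsg, 9 were not well above background on any array; 1 of 3, 3 of 5 and 2 of 5 measured stood at least 2-fold above WT and 0, 1 and 0 below it. Gzmc was at least 12.1-fold and 1.04-fold higher in JAK2V617F and the double mutant, Mcpt8, whose probe lies 16.1 kb from that of Ctsg, at least 2.61-fold and 6.11-fold, and Cma2 stood 1.08-fold, 2.40-fold and 1.26-fold below WT. Of 15 further Ms4a genes, 4 to 7 were measured per comparison, of which 1, 2 and 2 stood at least 2-fold above WT and 0 below it. The shares of all genes were 15.9%, 15.5% and 15.3% above WT and 17.5%, 15.7% and 16.6% below it. Ms4a4c was 2.48-fold, 1.81-fold and 5.15-fold higher, with some probes bounded, Ms4a6b was at least 5.35-fold higher in JAK2V617F, and Ms4a4b at least 2.63-fold and 2.16-fold higher in the arrays with JAK2V617F. Of the other peroxidases, Lpo, whose probe lies 2.18 kb from a probe of Mpo, was 1.85-fold, 1.37-fold and 1.67-fold higher than in WT. Epx, the eosinophil peroxidase 60.4 kb away, stood 1.16-fold, 18.0-fold and 8.47-fold below WT, opposite to Mpo in the arrays with JAK2V617F.

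Elane and Prtn3 lie in 1 cluster on chromosome 10, and their neighbours were looked at for the same pattern. Within 100 kb of the Prtn3 probe, beside Elane, 14 genes have probes. Of those measured, 2 of 13 were at least 2-fold higher and 0 lower in TET2KD, 4 of 12 higher and 1 lower in JAK2V617F, and 3 of 12 higher and 2 lower in the double mutant. Across all genes 15.9%, 15.5% and 15.3% were higher and 17.5%, 15.7% and 16.6% lower, so the TET2KD count of higher neighbours was near that share. The medians were 0.12, -0.05 and 0.13 log2. R3hdm4, 28.8 kb from the Prtn3 probe, was 2.60-fold, 6.25-fold and 6.50-fold higher than in WT, close to the values of Prtn3. Cfd, which encodes adipsin and sits 10.6 kb away beside Elane, was not well above background in the mutants and was at least 2.12-fold lower in JAK2V617F and at least 2.09-fold lower in the double mutant. Med16, Plppr3 and Ptbp1, the next nearest genes, stayed under 2-fold in each comparison with WT. Fstl3 was 2.74-fold and 7.16-fold higher in TET2KD and the double mutant and 1.26-fold lower in JAK2V617F.

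**Figure D5:**
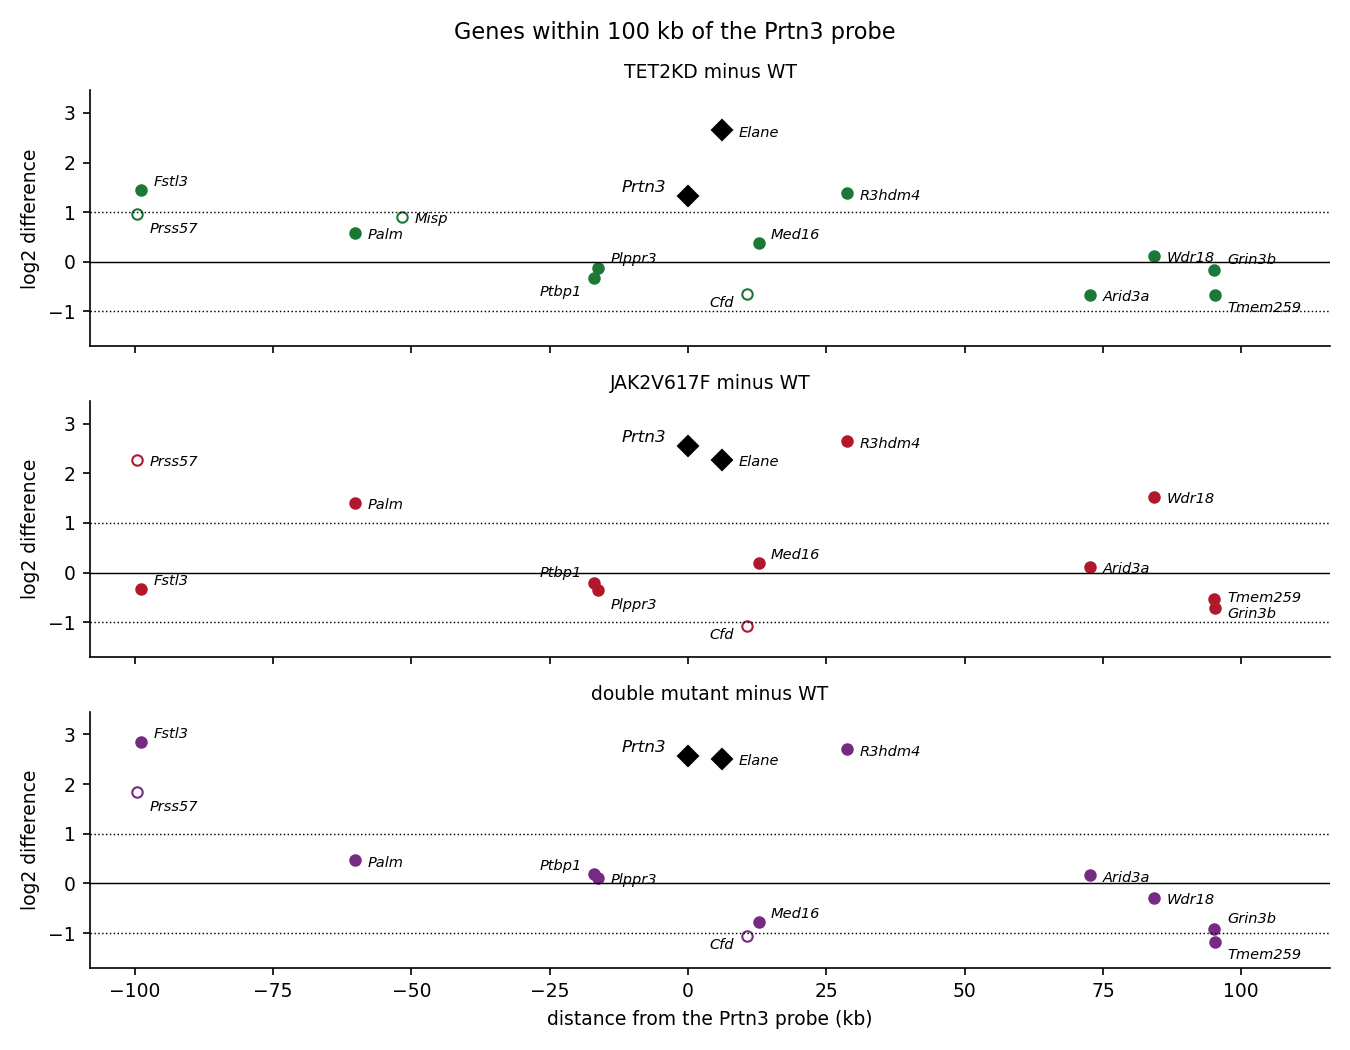
Log2 difference from WT of Prtn3 and the measured genes with a probe within 100 kb of its probe, against distance in kb; open circles are bounds and dotted lines mark 2-fold. Elane, R3hdm4 and Prss57 (a bound) stand at least 2-fold above WT in JAK2V617F and the double mutant, as Prtn3 does. Palm and Wdr18 do so in JAK2V617F alone, and Fstl3 in TET2KD and the double mutant. The genes nearest on the left, Ptbp1 and Plppr3, stay near 0.

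Genes outside the group had similar profiles over the 4 arrays. The member mean lay above WT by 0.95 log2 for TET2KD, 1.90 for JAK2V617F and 1.99 for the double mutant. Among 5988 genes bright enough to compare, the nearest to that mean by root mean square distance over the 3 differences were Arpc1a (0.09 log2), a subunit of an actin-nucleating complex, Nob1 (0.10), a factor of ribosome maturation, and Slc35b1 (0.12), a transporter of the endoplasmic reticulum. Slc30a9, Psmb3, Emc3, Ccdc77, Map3k11, Gtpbp2 and Zfp830 followed, at up to 0.25. The members are part of that mean. Mpo lay at 0.07 from it, nearer than any candidate, and 126 candidates were nearer than Prtn3, 548 than Ms4a3, 779 than Elane, 1447 than Ctsg and 3317 than Nkg7. The likeness is a description over 4 arrays that share 1 slide, and all 3 differences share the WT array.

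How far a single probe can stand for its gene was read from genes with 2 bright probes. Distances between probes are on the genome, introns included. Where the probes were under 1000 bases apart and the first differed at least 2-fold from WT, the second had the same direction in 72.7%, 78.2% and 82.4% of pairs in TET2KD, JAK2V617F and the double mutant (154, 142 and 136 pairs). At 1000 to 5000 bases the shares were 49.1%, 51.9% and 55.6% (167, 162 and 151 pairs). The Mpo probes, 2719 bases apart on the genome, had the same direction in all 3 comparisons. They start at bases 1995 and 2471 of differing transcript records, so they may lie closer along the transcript. Elane, Prtn3, Ctsg and Ms4a3 have no other probe, so their values describe the stretch each probe reads.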

How the data were processed

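Each of the 4 groups has 1 one-colour (Cy3) Agilent array. Per the labels' protocols, cells were sorted on a FACSAriaII, and Trizol RNA was amplified with the NuGEN Ovation Pico system and labelled with an Agilent kit for genomic DNA. The intensity values the authors deposited are, per the file headers, background-subtracted signals of Agilent Feature Extraction 10.7.3.1, not scaled between arrays, with probe coordinates of mm9. The deposited series matrix holds log2 values: each column equalled log2 of the intensity minus a constant (of 55249 probes with 1 spot, 0 deviated beyond 0.001), which makes the scale log2, with no centring of genes; the column medians were -2.64, -2.63, -2.60 and -2.60. The 4 arrays share 1 slide and 1 scan.

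Signals were taken to log2 and scaled by subtracting the 75th percentile of each array's spots, controls left out (59305 spots). Outlier spots (162 to 199 per array) were dropped, spots of a probe averaged, then probes of a gene. Beside the 8 member probes, a RefSeq table of GRCm38 named 28013 probes from their accession, 3422 from the symbol and 295 from a synonym. A gene entered a comparison if a probe was well above background on at least 1 of the 2 arrays. A dim side was set to the higher of its own signal and the array's lowest signal that was well above background; folds bounded for all probes are given as at least. Python 3.11.15, R 4.3.3 and limma 3.58.1 (normexp, quantile and cyclic loess alternatives) were used, and the steps were tested on simulated data. Neighbouring genes lie within 100 kb of a member probe, and the 10 genes most like the member mean were named. Of each of the other 14 lists, the text names up to 4 genes with the largest difference from WT, and genes chosen in another way are marked. Single values of some genes in these lists are not reported here; the lists' counts and sums include them. The members and lists were chosen with earlier results of these data known. Protein sequences were not used here.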

Additional observations from a re-analysis of the deposited data

Results flagged for a closer look

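Elane differed by 2.26 log2 between JAK2V617F and WT and by -0.14 between the double mutant and TET2KD, so the JAK2V617F difference had opposite signs on the 2 backgrounds; the second value is inside spot error and the difference between them was not tested. Nkg7 differed by -0.799 log2 between TET2KD and WT and by 0.036 between the double mutant and JAK2V617F; again the second value is inside spot error and the difference was not tested. Each of these values comes from 1 array per group, and Elane was read by 1 probe.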

How the results depend on the processing

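The alternatives were normexp background correction, quantile, cyclic loess and median scaling, 2 other filters for dim probes, a single (the brightest) probe for each gene, the deposited series matrix, and 3-fold in place of 2-fold. Taking the brightest probe per gene moved the median interaction of the members to -0.786 log2 (from -1.06) and their median in TET2KD against WT to 0.919 (from 1.16). Under the alternatives of scaling, background and filter, 5 members were at least 2-fold higher than WT in JAK2V617F and in the double mutant. At 3-fold the number was 4 in each, against 7.77% and 7.35% of all genes. In TET2KD it ran from 2 (3-fold, against 8.24% of genes) to 4 (quantile and cyclic loess, which add Mpo). With those 2 scalings 15.9% and 16.7% of genes were at least 2-fold higher in TET2KD. Between the double mutant and TET2KD the number of members higher ran from 2 (3-fold, against 7.18% of genes) to 4. The 4 came with normexp, the brightest probe and the series matrix, against 6.12%, 16.6% and 20.4% of genes. Nkg7 kept the sign of its JAK2V617F difference in 4 of 8 alternatives (-0.27 to 0.02 log2) and of its double mutant difference in 7 of 8 (-0.20 to 0.08); every other member difference and interaction kept its sign in 8 of 8. With normexp the background of genes at least 2-fold higher and lower was 5.56% and 7.56% in TET2KD, 5.95% and 6.11% in JAK2V617F and 5.44% and 6.60% in the double mutant, all against WT, and 3.204% and 4.125% between the double mutant and JAK2V617F and 6.12% and 5.54% between it and TET2KD. Without any filter the median of all genes was 0.11, -0.18 and -0.19 log2 in the mutants against WT and -0.19 in the double mutant against TET2KD. No paired analysis was possible because each group has 1 array, and for the same reason no replicate could be left out. The planned protein identity of the serine proteases was not run.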
